A study of Arabidopsis thaliana with 12 samples.

Results

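The genes described here build and run the plant DNA replication machinery. They are 37 genes of the 32833 in the deposited tables, taken by their gene identifiers: the subunits MCM2 to MCM7 of the replicative helicase, its activators MCM10, CDC45 and the 4 GINS subunits, its partner ETG1, the origin recognition complex ORC1 to ORC6, the loading factors CDC6 and CDT1, subunits of DNA polymerases alpha, delta and epsilon, the clamp PCNA and its loader subunit RFC1, the flap nuclease FEN1, the ligase LIG1, and the S-phase transcription factors E2FA and E2FB. The genes were chosen by role and not by a cutoff on measured values, but with earlier results of these data known. RNA was sequenced from Arabidopsis thaliana seedlings harvested 12 days after germination. They had 4 days of stratification at 4 °C and growth on soil in long days at about 21 °C. Of 5 root genes, RHD6, PLT1 and PLT2 had no counts in any library, whereas SCR and SHR had counts in every group. How much root tissue the material held was not tested. In experiment 2, 3 libraries of the mutant fas2-4 were compared with 3 libraries of wild-type Columbia-0 (Col-0), and in experiment 1, 3 libraries labelled hira-1 were compared with 3 libraries of a separate Col-0 set. The sample titles call these sets Group2 and Group1, and experiment is the name used for them here. The product of FAS2 belongs to CAF-1, the chromatin assembly complex that places histone H3.1 behind the replication fork, and HIRA encodes a chaperone of the replacement histone H3.3. The labels give the allele names without their lesions and do not say whether libraries of a group came from separate plants, so p-values measure the spread between these libraries, which may be technical.

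Before S phase, the origin recognition complex, CDC6 and CDT1 load the MCM2 to MCM7 ring onto DNA, a step called licensing. CDC45 and GINS then turn the ring into an active helicase, polymerase alpha primes both strands, polymerase epsilon extends the leading strand and polymerase delta the lagging strand. In plants most of these genes are transcribed in dividing cells at the passage from G1 to S phase, many of them under E2F transcription factors. In a seedling such cells are a minority, found mainly in the meristems and young leaves.

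The libraries held 39258873 to 39510509 counts in experiment 2 and 20700171 to 21902258 in experiment 1. The 37 genes took 0.0222 to 0.0558% of the counts of a library. Single genes had 19 to 1239 counts in experiment 2 and 7 to 759 in experiment 1, and all 37 passed the filter on low counts in both experiments. HIRA had 3.89, 4.38 and 7.70 TPM in the libraries labelled hira-1, against 3.40, 4.34 and 3.07 TPM in Col-0. The log2 fold change was +0.56 (SE 0.30, edgeR adjusted p = 0.198), and +1.49 (adjusted p = 0.0489) with a correction for exon length. FAS2 had 3.84, 3.78 and 5.06 TPM in fas2-4, against 5.40, 5.90 and 5.37 TPM in Col-0, which was not called (log2 -0.40, SE 0.16, adjusted p = 0.156). The lesions of both alleles are not given, so these RNA levels cannot test either label. The libraries of experiment 1 that carry the label hira-1 are called by it throughout. TPM is the authors' transcript abundance, scaled by gene length and library total and further scaled between the libraries of an experiment by the TMM method. A gene is called when its Benjamini-Hochberg adjusted p in edgeR's quasi-likelihood test is under 0.05. Fold changes are fas2-4, or the libraries labelled hira-1, over the Col-0 set of the same experiment. In bulk RNA, fewer cells of a type and less RNA per cell cannot be told apart.

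A sequence feature that the choice of genes did not use, an E2F consensus match, lay in some of the promoters of these genes. The consensus of E2F factors was searched as the 8 forms TTTCCCGC, TTTCCCGG, TTTCGCGC, TTTCGCGG, TTTGCCGC, TTTGCCGG, TTTGGCGC and TTTGGCGG, on both strands, in the 250 bases before the RefSeq gene start (TAIR10.1). A match lay in 15 of the 37 promoters (40.5%), against 768 of 27443 promoters of protein-coding genes (2.8%). For comparison, the telobox AAACCCTA lay in 2 of 37 (5.41%, those of ORC3 and PCNA1), against 1231 of 27443 (4.49%). The windows below show the matches, in capitals, for the helicase genes and for genes called in one of the comparisons. They are printed 5′ to 3′ on the gene's own strand, with up to 24 bases on either side and ending at the latest at the gene start. A match written with the A run last is the same consensus on the opposite strand.
MCM2, chr1:16970176-16970213, plus strand: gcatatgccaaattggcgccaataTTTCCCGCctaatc
MCM3, chr5:18773845-18773900, minus strand: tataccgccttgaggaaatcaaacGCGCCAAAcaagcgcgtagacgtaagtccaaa
MCM3, chr5:18773734-18773789, minus strand: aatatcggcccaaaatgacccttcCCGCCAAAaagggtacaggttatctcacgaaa
MCM4, chr2:7130733-7130788, minus strand: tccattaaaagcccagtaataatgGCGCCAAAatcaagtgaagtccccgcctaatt
MCM5, chr2:3527501-3527543, minus strand: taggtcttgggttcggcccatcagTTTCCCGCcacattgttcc
MCM6, chr5:18010682-18010737, minus strand: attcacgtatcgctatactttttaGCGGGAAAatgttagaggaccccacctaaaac
CDT1A, chr2:13328827-13328861, plus strand: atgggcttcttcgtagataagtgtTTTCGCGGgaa
ORC2, chr2:15758545-15758600, plus strand: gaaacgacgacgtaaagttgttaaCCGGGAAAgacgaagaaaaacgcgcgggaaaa
POLA3, chr5:16760793-16760845, plus strand: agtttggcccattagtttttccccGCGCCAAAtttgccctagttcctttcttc
The other promoters with a match were those of CDC45, PSF2, ORC1A, ORC3, CDC6B, POLA1 and FEN1. ORC2 held a second match, 2 bases before the gene start, at the end of the printed window. MCM7 had none in its window, nor had ORC4 and ORC6, and no match says only that these letters were not in those 250 bases. The windows of MCM7, ORC4 and ORC6 overlap the neighbouring genes AT4G02050, AT2G01110 and AT1G26830. The match is a description of the sequence, and binding was not measured.

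In fas2-4, edgeR called 2 of the 37 licensing and fork genes. ORC4, a subunit of the origin recognition complex, was 1.58-fold higher, and CDT1A, one of the MCM loading factors, fell to 0.690 of the Col-0 level. Against these 2 of 37 stood 9.74% of all 20004 tested genes, of which 6.78% were called higher and 2.96% lower. In counts per library total (CPM), the libraries of both groups did not overlap for 3 of 37 genes (ORC4 and PSF3 higher, CDT1A lower), against 31.7% of all tested genes. The median log2 fold change of the 37 was +0.05, and that of all tested genes was +0.03. Of the 37 fold changes, 22 were positive and 15 negative. An unadjusted p under 0.05 was found for 4 of the 37, against 5082 of the 20004 tested genes.

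No gene of the helicase ring was called in fas2-4. MCM2 had 5.92, 11.3 and 13.2 TPM in fas2-4, against 10.8, 12.4 and 9.13 TPM in Col-0. MCM3 had 7.73, 13.4 and 14.1 TPM in fas2-4, against 12.0, 13.0 and 10.1 TPM in Col-0. MCM4 had 5.05, 9.52 and 10.5 TPM in fas2-4, against 8.22, 10.4 and 9.85 TPM in Col-0. In each of these genes the first fas2-4 library was below, and the other fas2-4 libraries within or just above, the Col-0 range. MCM5 had 6.88, 13.4 and 14.7 TPM in fas2-4, against 9.11, 11.7 and 9.15 TPM in Col-0. MCM6 had 4.95, 8.23 and 9.37 TPM in fas2-4, against 8.21, 8.89 and 6.40 TPM in Col-0. MCM7 had 7.82, 13.5 and 14 TPM in fas2-4, against 11.8, 15.3 and 13.1 TPM in Col-0. The groups overlapped for every one of the 6 genes, and replicate 1 of fas2-4 was the lowest of the 6 libraries for each. Log2 fold changes lay between -0.19 (MCM7) and +0.22 (MCM5), with SE of 0.21 to 0.26. None of the 6 was called by edgeR or by DESeq2, and none passed 0.05 before adjustment. Summed over the ring, the level was 61.2 ± 20.03 TPM in fas2-4 and 63.2 ± 7.46 TPM in Col-0 (SD, n = 3 each). The share of the ring's summed TPM that each gene supplied was close in both groups except for MCM5, at 18.9 ± 0.806% in fas2-4 and 15.8 ± 0.587% in Col-0 (SD, n = 3 each), a difference that was not tested.

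**Figure D1:**
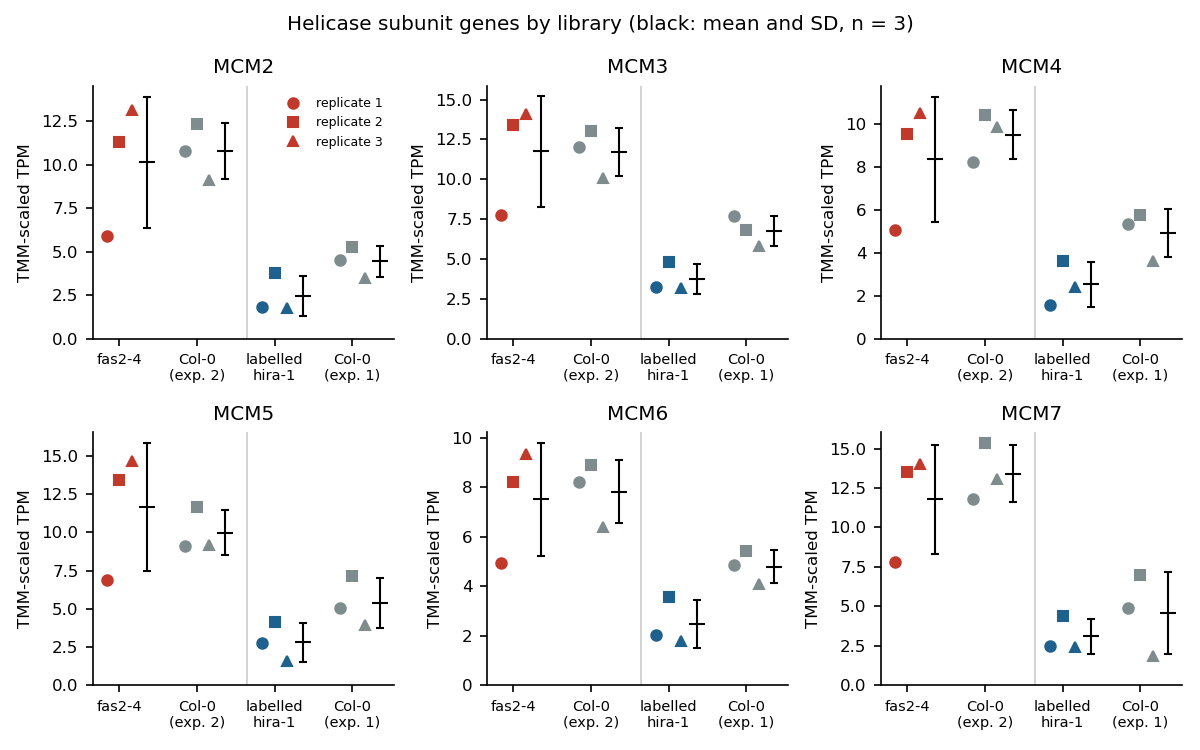
Level of MCM2 to MCM7 in each library (TPM with TMM scaling, vertical axis) in fas2-4, Col-0 of experiment 2, the libraries labelled hira-1 and Col-0 of experiment 1. Symbols mark replicate numbers and black bars the mean ± SD of 3 libraries. The fas2-4 and Col-0 points of experiment 2 overlap in every panel, with replicate 1 of fas2-4 lowest, while for MCM3 and MCM6 all 3 libraries labelled hira-1 lie below all 3 Col-0 libraries.

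ORC4 (AT2G01120, chromosome 2, 85401 to 88399, plus strand, TAIR10.1) was the origin recognition gene called in fas2-4. Its level was 7.31, 8.51 and 8.55 TPM in fas2-4, against 5.54, 4.96 and 4.91 TPM in Col-0, and the groups did not overlap. The log2 fold change was +0.66 (SE 0.14, edgeR adjusted p = 0.0215). The annotation places AT2G01130 on the opposite strand over part of ORC4, and the strand of the counting is not given in the sources used here, so reads of these genes cannot be told apart. The other 6 origin recognition genes were not called. ORC3 had +0.45 (SE 0.20, adjusted p = 0.200), with 2.70, 3.85 and 4.48 TPM in fas2-4, against 2.37, 2.88 and 2.81 TPM in Col-0, where the groups overlapped. ORC2 had -0.17, ORC5 +0.32 and ORC6 +0.20, with adjusted p of 0.442 to 0.548. ORC1A and ORC1B encode variants of the largest subunit, and ORC1A was the lowest expressed of all 37 genes. ORC1B had 3.29, 4.89 and 5.21 TPM in fas2-4, against 4.17, 4.80 and 4.63 TPM in Col-0 (log2 fold change -0.03, SE 0.18, adjusted p = 0.957). ORC1A had 0.274, 0.351 and 0.653 TPM in fas2-4, against 0.483, 0.412 and 0.613 TPM in Col-0 (log2 fold change -0.24, SE 0.35, adjusted p = 0.746). Both overlapped between the groups.

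CDT1A (AT2G31270, chromosome 2, 13328862 to 13331831, plus strand) fell in fas2-4, whereas its paralog CDT1B was not called. CDT1A had 8.43, 9.49 and 11.0 TPM in fas2-4, against 13.1, 13.5 and 15.3 TPM in Col-0, with no overlap (log2 fold change -0.54, SE 0.14, adjusted p = 0.0419). CDT1B had 8.46, 9.22 and 10.4 TPM in fas2-4, against 9.94, 10.02 and 9.67 TPM in Col-0 (log2 fold change -0.08, SE 0.13, adjusted p = 0.758). The CDT1A to CDT1B ratio was 1.03 ± 0.0347 in fas2-4, against 1.42 ± 0.143 in Col-0 (SD, n = 3 each). The ratios ran between 0.996 and 1.07 in fas2-4 and between 1.32 and 1.58 in Col-0, so they did not overlap, and the ratios were not tested. CDC6 and CDC6B, the paralogous ATPases that recruit the ring with CDT1, had log2 fold changes of +0.05 (SE 0.19, adjusted p = 0.914) and -0.06 (SE 0.30, adjusted p = 0.936). CDC6 had 2.56, 3.47 and 4.10 TPM in fas2-4, against 2.93, 3.50 and 3.34 TPM in Col-0. CDC6B had 0.835, 1.76 and 1.49 TPM in fas2-4, against 1.60, 1.55 and 1.1 TPM in Col-0. Both pairs of groups overlapped, and CDC6 was the more abundant paralog in each library.

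The calls of ORC4 and CDT1A rested on small margins. Leaving out replicate 1 of fas2-4 kept both (ORC4 +0.69, adjusted p = 0.00267; CDT1A -0.48, adjusted p = 0.00997). Leaving out Col-0 replicate 1, 2 or 3 ended both calls, with adjusted p of 0.0704, 0.110 and 0.0963 for ORC4 and 0.117, 0.128 and 0.149 for CDT1A. Leaving out fas2-4 replicate 2 or 3 ended them too, with 0.0710 and 0.0828 for ORC4 and 0.110 and 0.0512 for CDT1A. The log2 fold changes themselves moved little in the 6 fits, between +0.62 and +0.72 for ORC4 and between -0.65 and -0.48 for CDT1A.

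The polymerase genes all had positive fold changes in fas2-4, but none was called. POL2A, the catalytic subunit of polymerase epsilon, was the highest of the 37, with 0.826, 2.41 and 2.79 TPM in fas2-4, against 1.06, 0.973 and 0.868 TPM in Col-0. Replicates 2 and 3 of fas2-4 were above every Col-0 library and replicate 1 below all of them, with a log2 difference of +1.05 (SE 0.37, adjusted p = 0.119). It was called with DESeq2 (+1.01, adjusted p = 0.0350), with a correction for exon length (+0.94, adjusted p = 0.00315) and without replicate 1 of fas2-4 (+1.39, adjusted p = 0.000105). POLA1, the catalytic subunit of polymerase alpha, showed the same order of libraries, with 1.20, 3.60 and 3.78 TPM in fas2-4, against 2.18, 2.53 and 2.02 TPM in Col-0 (+0.34, SE 0.36, adjusted p = 0.627). POLD1, the catalytic subunit of polymerase delta, had +0.33 (SE 0.29, adjusted p = 0.554). The other 3 polymerase alpha-primase genes, POLA2, EMB2813 and POLA3, lay at +0.02 to +0.05, with adjusted p of 0.894 to 0.974. Among the 6 polymerase genes POL2A had an unadjusted p under 0.05, as had 5082 of all 20004 tested genes. By DESeq2, ORC4 and POL2A of the 37 were called higher and CDT1A lower, against 7.81% and 5.49% of all tested genes.

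Replicate 1 of fas2-4 stood apart in these genes. Its counts depended on exon length, with a slope of -0.26 log2 units per doubling of length relative to the mean library of the experiment. The slopes were +0.10 and +0.11 in the other fas2-4 libraries, and +0.02, +0.04 and -0.01 in Col-0. Without it, 9 of the 37 were called higher (MCM5, ORC3, ORC4, ORC5, POLA1, POL2A, POLD1, RFC1 and FEN1) and CDT1A lower, against 14.2% higher and 13.8% lower of 20198 tested genes, and the median of the 37 was +0.16. MCM5 then had +0.46 (adjusted p = 0.0202). With the exon length trend of each library taken out and all 6 libraries kept, 2 of the 37 were called higher, ORC4 (+0.63, adjusted p = 0.0112) and POL2A, and CDT1A lower (-0.54, adjusted p = 0.0114), against 9.63% and 7.03% of all tested genes.

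The remaining fork genes in fas2-4 had small fold changes. PCNA1 and PCNA2 encode the sliding clamp and were the most abundant of the 37. PCNA1 had 40.9, 36.6 and 35.2 TPM in fas2-4, against 34.9, 38.0 and 28.3 TPM in Col-0 (+0.15, SE 0.14, adjusted p = 0.586). PCNA2 had 24.8, 30.2 and 34.8 TPM in fas2-4, against 28.3, 26.3 and 22.7 TPM in Col-0 (+0.21, SE 0.15, adjusted p = 0.455). The groups overlapped for both. RFC1 had +0.41 (adjusted p = 0.319), FEN1 +0.34 (adjusted p = 0.267) and LIG1 -0.0026 (adjusted p = 0.996). Of the helicase activators, PSF3 was higher in each fas2-4 library, with 14.3, 13.1 and 13.6 TPM, against 11.3, 10.8 and 11.2 TPM in Col-0, but was not called (+0.30, SE 0.13, adjusted p = 0.183). In PSF3, 31.3% of the 50-base stretches of the transcript occur elsewhere in the genome, so its counts may hold reads of other loci. SLD5, with 13% of such stretches, had +0.23, PSF1 +0.20, PSF2 -0.09, MCM10 +0.28 and CDC45 -0.04, with adjusted p of 0.356 to 0.930. ETG1, which binds the MCM ring, had -0.10 (adjusted p = 0.790). E2FA had 3.23, 4.41 and 5.40 TPM in fas2-4, against 3.70, 4.09 and 4.24 TPM in Col-0 (+0.11, adjusted p = 0.782). E2FB had 2.02, 3.88 and 3.60 TPM in fas2-4, against 2.74, 3.75 and 2.98 TPM in Col-0 (+0.0028, adjusted p = 0.997). Both E2F genes overlapped between the groups.

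**Figure D2:**
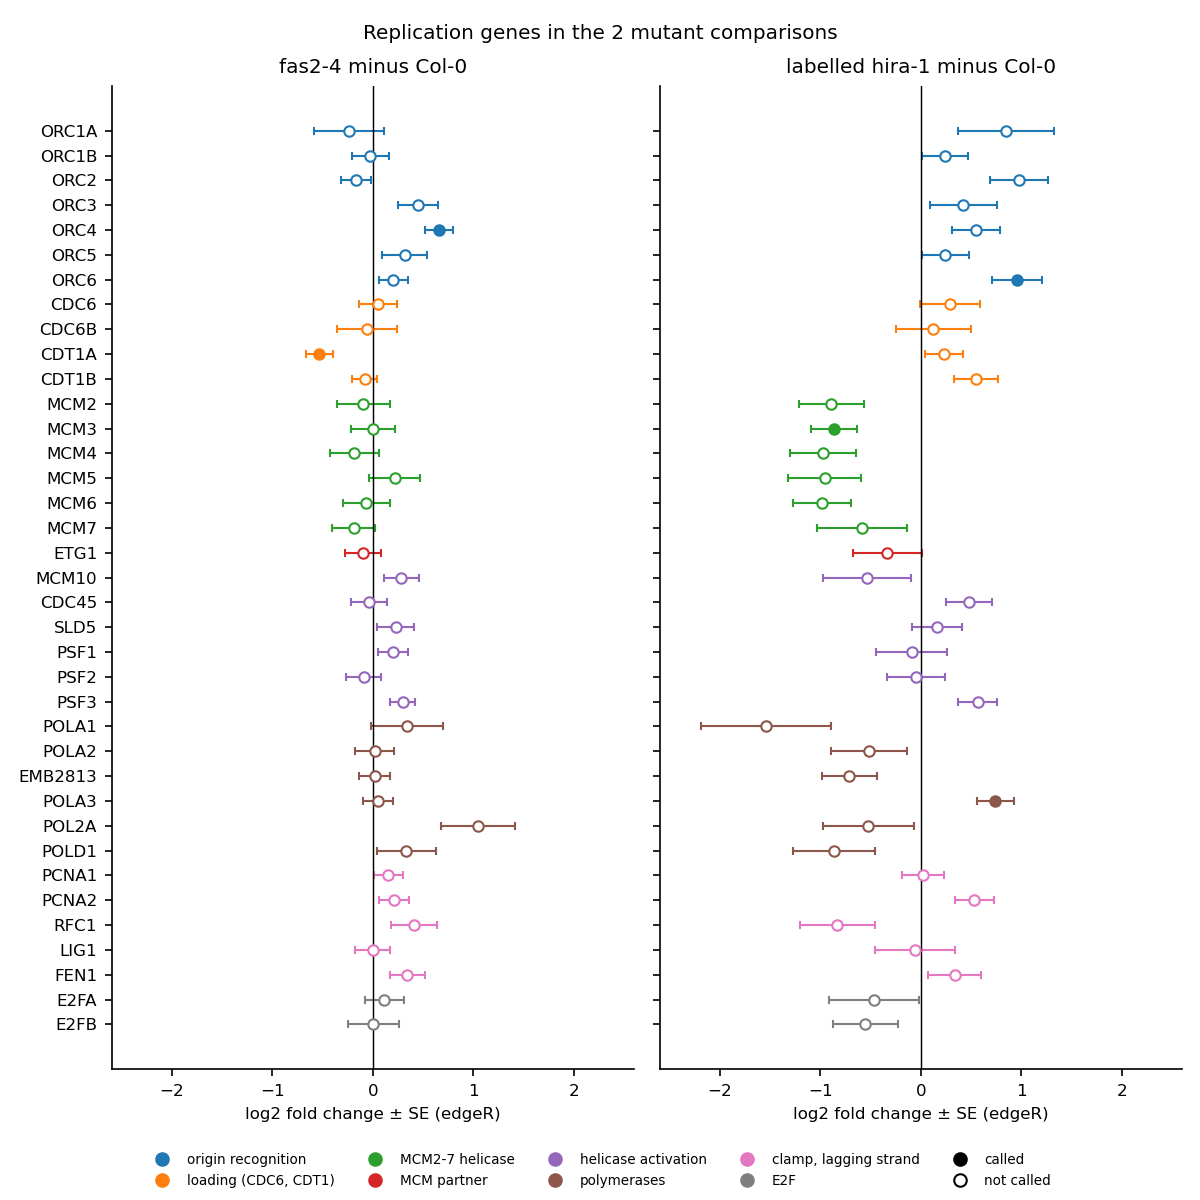
Log2 fold change ± SE of each of the 37 genes, grouped by role, in fas2-4 over Col-0 and in the libraries labelled hira-1 over Col-0; filled points were called by edgeR at an adjusted p under 0.05. In fas2-4 the points lie between -0.54 (CDT1A) and +1.05 (POL2A) with ORC4 and CDT1A filled; in the libraries labelled hira-1 all 6 MCM points are negative and all 7 ORC points positive, with MCM3, ORC6 and POLA3 filled.

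In the libraries labelled hira-1 the genes of the ring and those of its loaders had fold changes of opposite sign. All 6 genes MCM2 to MCM7 were negative (median -0.92), all 7 origin recognition genes were positive (median +0.55) and all 4 CDC6 and CDT1 genes were positive (median +0.26). At the threshold, 2 of 37 were called higher (ORC6 and POLA3) and 1 lower (MCM3), against 13.7% of 18739 tested genes in all, 6.94% higher and 6.80% lower. In CPM, the libraries did not overlap for 12 of 37, against 38.6% of all tested genes. Of these 12, CDC45, PSF3, ORC2, ORC4, ORC6, CDT1B, POLA3 and PCNA2 were higher, against 19.4% of all, and MCM3, MCM4, MCM6 and EMB2813 lower, against 19.2% of all. The median of the 37 was -0.05 and that of all tested genes -0.02. An unadjusted p under 0.05 was found for 14 of the 37, against 6824 of the 18739 tested genes. In this experiment libraries with the same replicate number deviated together, so a fit with the replicate number as a block is given beside the results it changes. The block was chosen from these data and not from the labels, so its p-values may be too small. With the block, 8 of the 37 were called higher and 10 lower, against 23.9% and 27.3% of all tested genes.

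The MCM genes were lower by 0.59 to 0.98 on the log2 scale, and MCM3 passed the threshold. MCM3 (AT5G46280, chromosome 5, 18769649 to 18773706, minus strand) had 3.23, 4.83 and 3.17 TPM in the libraries labelled hira-1, against 7.67, 6.81 and 5.78 TPM in Col-0. The groups did not overlap, and the level was 0.551 of that in Col-0 (log2 fold change -0.86, SE 0.23, adjusted p = 0.0414). MCM6 had 2.02, 3.57 and 1.78 TPM in the libraries labelled hira-1, against 4.87, 5.42 and 4.10 TPM in Col-0, also without overlap (-0.98, SE 0.29, adjusted p = 0.0526). MCM4 had 1.56, 3.64 and 2.38 TPM in the libraries labelled hira-1, against 5.33, 5.75 and 3.63 TPM in Col-0, where the nearest libraries crossed in TPM but not in CPM (-0.97, SE 0.33, adjusted p = 0.0712). In MCM2, MCM5 and MCM7 the groups overlapped. MCM2 had 1.79, 3.75 and 1.75 TPM in the libraries labelled hira-1, against 4.54, 5.29 and 3.50 TPM in Col-0 (-0.89, SE 0.33, adjusted p = 0.0878). MCM5 had 2.73, 4.11 and 1.57 TPM in the libraries labelled hira-1, against 5.02, 7.17 and 3.91 TPM in Col-0 (-0.96, SE 0.36, adjusted p = 0.0929). MCM7 had 2.49, 4.36 and 2.39 TPM in the libraries labelled hira-1, against 4.91, 6.97 and 1.82 TPM in Col-0 (-0.59, SE 0.45, adjusted p = 0.361). Replicate 2 was the highest of the 3 libraries labelled hira-1 for every gene of the ring. The summed level was 13.8, 24.3 and 13.0 TPM in the libraries labelled hira-1, against 32.3, 37.4 and 22.8 TPM in Col-0.

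With the block, MCM2 to MCM6 were called lower, by 0.87 (MCM3, adjusted p = 7.55e-05) to 1.02 (MCM6, adjusted p = 6.94e-05), and MCM7 was not (-0.48, adjusted p = 0.0938). DESeq2 also called MCM2 to MCM6 lower, with adjusted p of 0.00991 to 0.0472. In all it called 6 of the 37 lower and 3 higher (ORC2, ORC6 and POLA3), against 11.8% and 11.0% of all tested genes. Without replicate 2 of the libraries labelled hira-1, 5 of the 37 were called higher and 6 lower, against 12.7% and 13.7% of 19033 tested genes, and MCM2 to MCM6 were among the 6, at -1.06 to -1.32. Without Col-0 replicate 3, MCM3 was called at -0.93 (adjusted p = 0.0408), as were ORC6 (+1.01, adjusted p = 0.0451) and POLA3 (+0.84, adjusted p = 0.0347). Without any one of the other 4 libraries (Col-0 replicates 1 and 2, and replicates 1 and 3 labelled hira-1) these 3 calls ended, with adjusted p of 0.116 to 0.168 for MCM3, 0.0693 to 0.163 for ORC6 and 0.0809 to 0.157 for POLA3.

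These fold changes went with transcript length. Across the 37 genes the Spearman correlation of exon length with the log2 fold change in the libraries labelled hira-1 was -0.65 (n = 37 genes of the same 6 libraries), and across all tested genes it was -0.56. In fas2-4 the same correlations were 0.03 and -0.05. The ring genes are 2649 to 3184 bases long, and tested genes of 2500 to 3500 bases had a median of -0.49 in the libraries labelled hira-1. The 12 of the 37 genes in that length range had a median of -0.34, which included ORC1A, ORC1B, ORC3 and ORC5 on the positive side. For genes under 1500 bases the median was +0.53 for the 5 of the 37 and +0.37 for all. When the length trend of each library was taken out, MCM2 to MCM7 stayed negative, at -0.17 (MCM7) to -0.57 (MCM5), but edgeR called none of the 6 (adjusted p of 0.124 to 0.791, 1 of 6 at an unadjusted p under 0.05). Of all 18739 tested genes, 5754 had an unadjusted p under 0.05 in that fit. Then 1 of the 37 was called higher, POLA3 (+0.69, adjusted p = 0.0309), and none lower, against 4.98% and 5.09% of all tested genes, and the median of the 37 was +0.20, against +0.01 for all tested genes. With both the length correction and the block, MCM5 (-0.59, adjusted p = 0.0126), MCM6 (-0.52, adjusted p = 0.0253) and EMB2813 (-0.70, adjusted p = 0.00448) were called lower and 12 of the 37 higher, against 38.4% of all tested genes called in either direction. The slopes on length, in log2 units per doubling, were -0.22, -0.01 and -0.47 in the libraries labelled hira-1, against +0.31, +0.36 and +0.02 in Col-0. In both groups replicate 2 had the highest slope and replicate 3 the lowest. The part of this shared order in the pairing by replicate number was not tested.

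**Figure D3:**
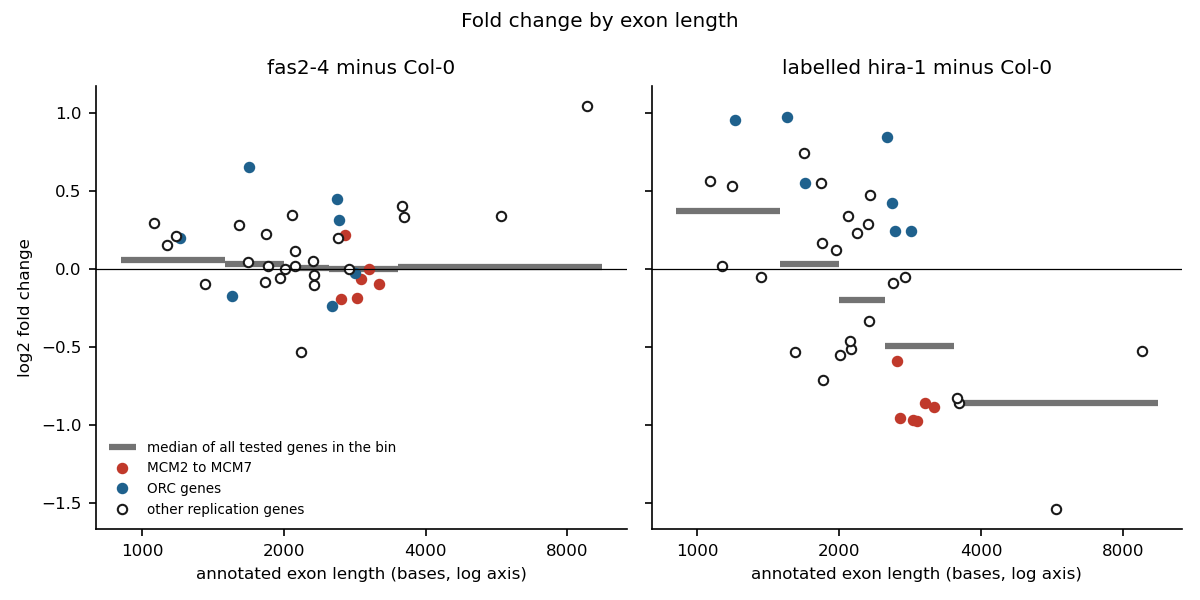
Log2 fold change (vertical axis) against exon length in bases (logarithmic horizontal axis) for the 37 genes in both comparisons; MCM2 to MCM7 are red, ORC genes blue, the others open, and grey bars give the median of all tested genes in each length range. In fas2-4 the grey bars stay near 0; in the libraries labelled hira-1 they fall to -0.86 for genes of 3500 bases or more, and the MCM genes lie below and the ORC genes above the bars of their length.

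The origin recognition genes were on the positive side in the libraries labelled hira-1, and ORC6 was called. ORC6 (AT1G26840, chromosome 1, 9298670 to 9300800, plus strand), the smallest subunit, had 10.5, 7.70 and 8.0 TPM in the libraries labelled hira-1, against 4.04, 4.73 and 4.69 TPM in Col-0. There was no overlap, and the level was 1.94-fold that of Col-0 (log2 fold change +0.96, SE 0.24, adjusted p = 0.0383). ORC2 (AT2G37560, chromosome 2, 15758601 to 15761262, plus strand) was the highest of the 37, with 5.53, 4.71 and 6.80 TPM in the libraries labelled hira-1, against 2.12, 3.17 and 3.35 TPM in Col-0. It did not overlap, narrowly missed the threshold (+0.97, SE 0.29, adjusted p = 0.0527) and passed with the block (+0.98, adjusted p = 0.000738) and by DESeq2 (+0.98, adjusted p = 0.0179). ORC4 had 6.98, 7.37 and 4.79 TPM in the libraries labelled hira-1, against 4.56, 4.47 and 3.93 TPM in Col-0, without overlap (+0.55, SE 0.24, adjusted p = 0.132), passing with the block (+0.54, adjusted p = 0.0217). ORC1A had 0.239, 0.564 and 0.326 TPM in the libraries labelled hira-1, against 0.171, 0.255 and 0.194 TPM in Col-0, from 7 to 23 counts (+0.85, SE 0.48, adjusted p = 0.225). ORC1B had 2.63, 3.27 and 2.77 TPM in the libraries labelled hira-1, against 2.27, 2.70 and 2.32 TPM in Col-0 (+0.24, SE 0.23, adjusted p = 0.460). The ORC1 pair overlapped between the groups. ORC3 and ORC5 had +0.43 and +0.24, with adjusted p of 0.377 and 0.467. Summed over the complex, the level was 36.3, 32.8 and 30.8 TPM in the libraries labelled hira-1, against 21.1, 22.8 and 21.5 TPM in Col-0, with no overlap. After the length correction all 7 genes stayed positive, with a median of +0.71. Each had an unadjusted p under 0.05, as had 5754 of all 18739 tested genes, and edgeR called none of the 7 (adjusted p of 0.0592 to 0.154). With the correction and the block 6 of the 7 were called higher, against 3740 of the 18739 tested genes.

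Among the loading factors in the libraries labelled hira-1, CDT1B was higher without passing the threshold. CDT1B had 8.79, 7.34 and 7.62 TPM in the libraries labelled hira-1, against 5.26, 4.63 and 6.32 TPM in Col-0, with no overlap (+0.55, SE 0.22, adjusted p = 0.104). Adding the block brought a call (+0.55, adjusted p = 0.00995). CDT1A had 9.86, 8.11 and 8.69 TPM in the libraries labelled hira-1, against 7.86, 6.88 and 7.89 TPM in Col-0 (+0.23, SE 0.19, adjusted p = 0.382). The ratio of CDT1A to CDT1B was 1.12 ± 0.0173 in the libraries labelled hira-1, against 1.41 ± 0.140 in Col-0 (SD, n = 3 each), and the ratios did not overlap (1.105 to 1.139 and 1.25 to 1.49) and were not tested. CDC6 had 3.75, 3.28 and 1.93 TPM in the libraries labelled hira-1, against 2.63, 2.58 and 2.07 TPM in Col-0 (+0.29, adjusted p = 0.494). CDC6B had 0.943, 1.002 and 0.608 TPM in the libraries labelled hira-1, against 0.803, 0.945 and 0.574 TPM in Col-0 (+0.12, adjusted p = 0.827). Both CDC6 genes overlapped between the groups.

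The polymerase alpha-primase genes diverged from each other in the libraries labelled hira-1. POLA3 (AT5G41880, chromosome 5, 16760846 to 16764276, plus strand), the small primase subunit, had 17.4, 15.7 and 19.0 TPM in the libraries labelled hira-1, against 9.57, 10.05 and 11.5 TPM in Col-0. It was 1.67-fold higher with no overlap (+0.74, SE 0.18, adjusted p = 0.0363), and AT5G41890 overlaps it on the opposite strand, so their reads cannot be told apart. EMB2813, the large primase subunit, had 4.86, 4.98 and 2.89 TPM in the libraries labelled hira-1, against 8.26, 6.77 and 5.66 TPM in Col-0, also without overlap but lower (-0.71, SE 0.27, adjusted p = 0.0957), passing with the block (-0.72, adjusted p = 0.00196). EMB2813 and POLA3 have similar exon lengths, 1849 and 1682 bases. POLA1 (AT5G67100, chromosome 5, 26776953 to 26786431, plus strand) was the lowest of the 37. It had 0.225, 0.890 and 0.158 TPM in the libraries labelled hira-1, against 1.38, 1.78 and 0.499 TPM in Col-0 (-1.54, SE 0.65, adjusted p = 0.121). The groups overlapped, and calls came with the block (-1.68, adjusted p = 2.97e-05) and by DESeq2 (-1.54, adjusted p = 0.0460). POLA1 is 5783 bases long, and with the length correction and the block it had -0.65 (adjusted p = 0.0651). POLA2, POLD1 and RFC1 had -0.51, -0.86 and -0.83, with adjusted p of 0.139 to 0.344, and were called with the block (-0.54, -0.88 and -0.84). POL2A, the longest of the 37 at 8805 bases, had 0.483, 0.592 and 0.224 TPM in the libraries labelled hira-1, against 0.803, 0.755 and 0.292 TPM in Col-0 (-0.52, adjusted p = 0.417). Its sign turned with the length correction (+0.79, adjusted p = 0.0973), and with the correction and the block it was called higher (+0.78, adjusted p = 0.0143).

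Neither clamp paralog was called in the libraries labelled hira-1. PCNA2 had 44.0, 30.8 and 38.3 TPM in the libraries labelled hira-1, against 25.5, 23.7 and 29.0 TPM in Col-0, without overlap (+0.53, SE 0.19, adjusted p = 0.0866; with the block +0.52, adjusted p = 0.00173). PCNA1 had 27.9, 21.0 and 17.7 TPM in the libraries labelled hira-1, against 23.7, 21.5 and 20.3 TPM in Col-0, with overlap (+0.02, SE 0.21, adjusted p = 0.949; -0.30 with the length correction). The PCNA1 to PCNA2 ratio was 0.593 ± 0.115 in the libraries labelled hira-1, against 0.845 ± 0.127 in Col-0 (SD, n = 3 each), with ranges of 0.463 to 0.682 and 0.699 to 0.929, a difference that was not tested. In experiment 2 the ratio was 1.29 ± 0.328 in fas2-4, against 1.31 ± 0.120 in Col-0, with overlap. PSF3 had 23.2, 17.5 and 20.5 TPM in the libraries labelled hira-1, against 14.1, 12.8 and 14.3 TPM in Col-0, without overlap (+0.57, SE 0.20, adjusted p = 0.0751), passing with the block (+0.56, adjusted p = 0.00290). CDC45 had 6.09, 4.41 and 5.18 TPM in the libraries labelled hira-1, against 3.81, 3.38 and 4.05 TPM in Col-0, without overlap (+0.48, SE 0.23, adjusted p = 0.159), passing with the block (+0.47, adjusted p = 0.0362). The other helicase partners and activators were not called with or without the block, at -0.54 (MCM10), -0.33 (ETG1), -0.09 (PSF1), -0.05 (PSF2) and +0.16 (SLD5). FEN1 had +0.34 and LIG1 -0.05. E2FA had 0.747, 2.71 and 1.23 TPM in the libraries labelled hira-1, against 2.21, 2.67 and 1.51 TPM in Col-0 (-0.46, SE 0.45, adjusted p = 0.470). E2FB had 1.40, 2.25 and 1.26 TPM in the libraries labelled hira-1, against 3.05, 2.30 and 1.81 TPM in Col-0 (-0.55, SE 0.33, adjusted p = 0.243). For both E2F genes the groups overlapped.

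**Figure D4:**
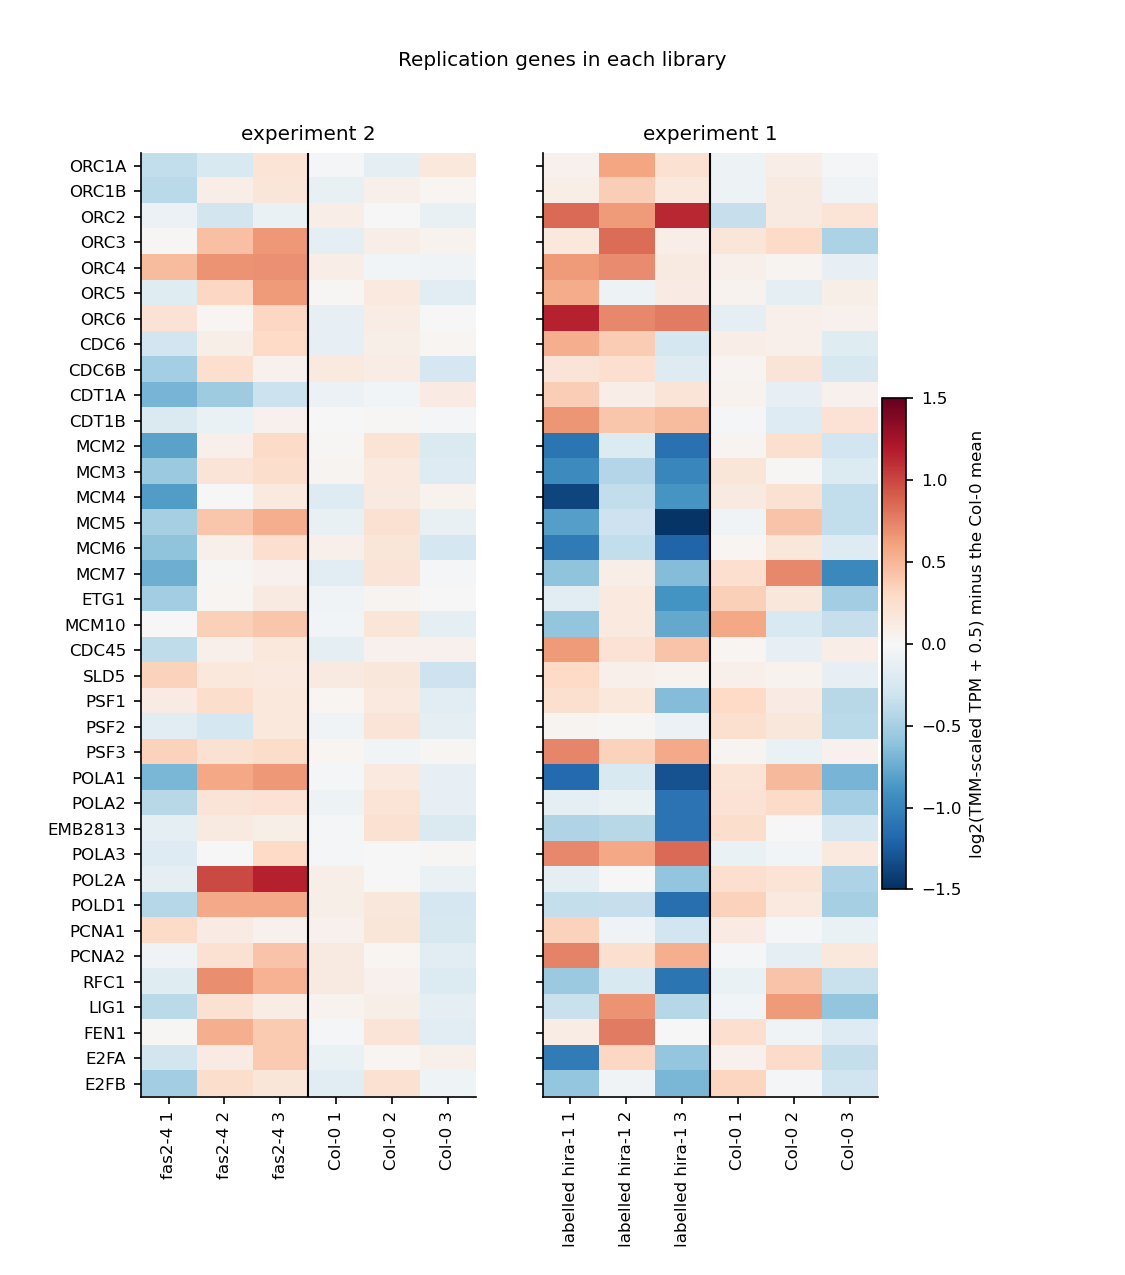
Log2 of (TPM + 0.5) in each library minus the mean of the Col-0 libraries of the same experiment, for the 37 genes by role; blue is lower and red higher, on a scale of -1.5 to 1.5. Replicate 1 of fas2-4 is blue across MCM2 to MCM7 while replicates 2 and 3 are not. The libraries labelled hira-1 are on the blue side in MCM2 to MCM6, and replicates 1 and 3 of them in MCM7. They are red in ORC2, ORC6, PSF3 and POLA3, with Col-0 replicate 3 of experiment 1 also blue in several long genes.

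The effects in fas2-4 and in the libraries labelled hira-1 were also tested against each other, as the effect in fas2-4 minus that in the libraries labelled hira-1, each against its own Col-0 set. Of the 37, edgeR called 2, both lower, against 11.6% of 20152 tested genes in all, 5.73% lower and 5.84% higher. ORC2 differed by -1.16 (SE 0.30, adjusted p = 0.0303), with -0.17 in fas2-4 and +0.97 in the libraries labelled hira-1. CDT1A differed by -0.78 (SE 0.21, adjusted p = 0.0347), with -0.54 in fas2-4 and +0.23 in the libraries labelled hira-1. Both were called with the length correction too (ORC2 -1.09, adjusted p = 0.0211; CDT1A -0.98, adjusted p = 0.00809). Of the 12 fits that left out 1 library, 4 kept the call of ORC2 and 3 that of CDT1A, at differences of -1.27 to -0.97 and -0.88 to -0.68. Both calls held without Col-0 replicate 3 of experiment 1, without replicate 2 labelled hira-1 and without replicate 1 of fas2-4, and that of ORC2 also without replicate 1 labelled hira-1. The largest positive difference was that of POLA1, +1.84 (SE 0.81, adjusted p = 0.137), and POLA3 lay just outside the threshold (-0.71, SE 0.22, adjusted p = 0.0520). For MCM2 to MCM7 the 6 differences were positive (+0.37 to +1.141, adjusted p of 0.102 to 0.658) and none was called. Before adjustment 3 of the ring genes passed 0.05, as did 6558 of all 20152 tested genes. By DESeq2 none of the ring genes was called. Without replicate 2 labelled hira-1, MCM2, MCM3, MCM5 and MCM6 were called (+1.06 to +1.53), and without replicate 1 of fas2-4, MCM3, MCM5 and MCM6 (+1.05 to +1.40). In these fits 13.6% and 10.8% of all tested genes were called higher. With the length correction the 6 differences ran between -0.06 and +0.73. With the replicate block 5 of the 37 were called higher (MCM5, POLA1, EMB2813, POLD1 and RFC1) and 4 lower (ORC2, CDT1A, CDT1B and POLA3), against 32.1% of all in either direction. That fit also blocked experiment 2 by replicate number, where the numbers did not pair the libraries. DESeq2 called 5 of the 37, all lower, and the length correction 5, all lower (ORC1B, ORC2, CDT1A, CDT1B and POLA3), against 10.6% and 7.44% of all tested genes called lower.

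Other cell cycle genes put these values in context, from lists of genes by their known roles. Of 22 tested genes of the fork outside the 37, 2 rose in fas2-4, against 6.78% of all tested genes called higher, and none fell. RPA1E, a large subunit of the single-strand binding protein RPA, had 3.04, 5.42 and 5.25 TPM in fas2-4, against 0.717, 0.888 and 1.19 TPM in Col-0 (log2 fold change +2.29, SE 0.27, adjusted p = 0.00227). POLD4, the small subunit of polymerase delta, had 119.3, 85.0 and 93.1 TPM in fas2-4, against 41.0, 41.3 and 44.8 TPM in Col-0 (+1.23, SE 0.15, adjusted p = 0.00261). Neither overlapped, and both were called in all 6 fits that left out 1 library. The other 20 were not called, the median was +0.28, and POL2B, the second polymerase epsilon gene, was too low to test. In the libraries labelled hira-1, 1 of the 22 was called, against 13.7% of all tested genes. It was TOPII, which encodes DNA topoisomerase II. TOPII had 0.686, 0.597 and 0.337 TPM in the libraries labelled hira-1, against 3.50, 2.71 and 2.14 TPM in Col-0 (-2.37, SE 0.32, adjusted p = 0.0145; -1.44, adjusted p = 0.0216, with the length correction), and the groups did not overlap. The median of that list was -0.09.

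Upstream of licensing, 3 of 17 G1 to S control genes rose in fas2-4, the D-type cyclins CYCD4;1 (+0.96, adjusted p = 0.00685) and CYCD3;3 (+0.54, adjusted p = 0.0470) and the atypical E2F gene DEL3 (+0.93, adjusted p = 0.0418), against 6.78% of all tested genes. Against their own Col-0 set, libraries labelled hira-1 had more of 3 of the 17, the cyclins CYCD3;3 (+1.12, adjusted p = 0.0240), CYCD4;1 (+1.02, adjusted p = 0.0419) and CYCD2;1 (+0.84, adjusted p = 0.0494), against 6.94% of all tested genes called higher. The medians were +0.12 in fas2-4 and +0.29 in the libraries labelled hira-1. Downstream, 14 of 17 markers of cells in G2 and M phase rose in fas2-4, against 6.78% of all tested genes, and the other 3 did not pass, with a median of +0.99. Their summed level was 260.2 to 341.1 TPM in fas2-4, against 158.9 to 159.0 TPM in Col-0. CYCB1;1 rose by 2.21 (adjusted p = 0.000847), CDKB1;1 by 1.23 (adjusted p = 0.00204), CDKB1;2 by 1.16 (adjusted p = 0.00276) and CDKB2;1 by 0.95 (adjusted p = 0.00229), and none of the 17 was at 0. The median of the 37 licensing and fork genes in the same libraries was +0.05, and the difference between the lists was not tested. For the libraries labelled hira-1, 2 of the 17 rose, CDKB1;1 (+0.93, adjusted p = 0.0367) and CYCB2;2 (+0.79, adjusted p = 0.0468), against 6.94% of all tested genes. Their summed level was 112.3 to 118.2 TPM in the libraries labelled hira-1, against 91.9 to 109.7 TPM in Col-0.

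**Figure D5:**
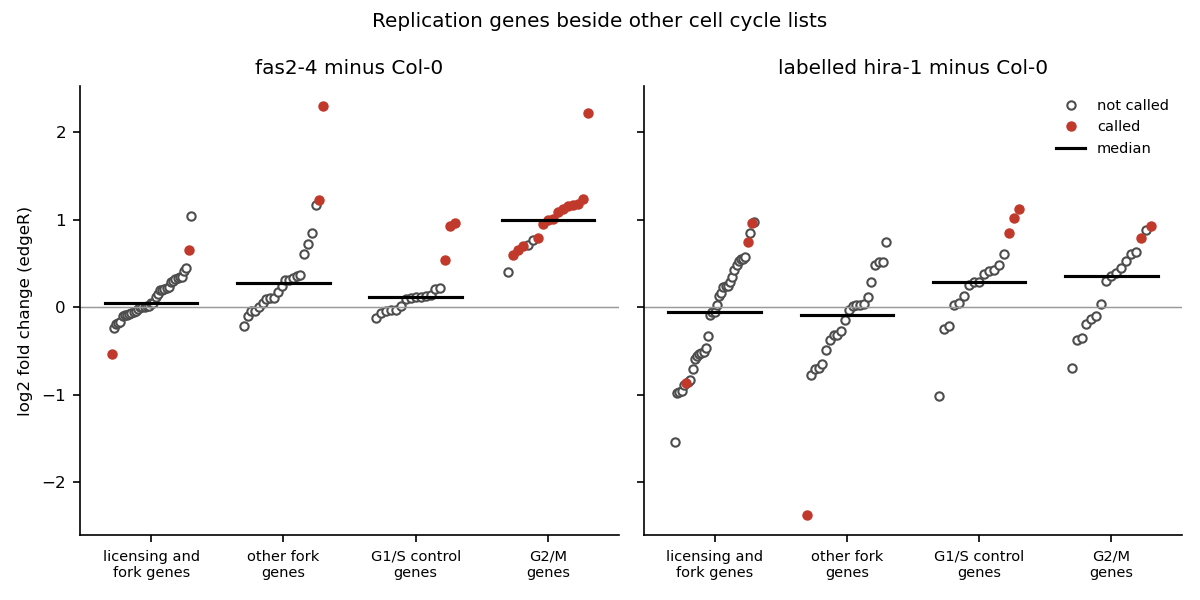
Log2 fold changes of the 37 licensing and fork genes, the other fork genes, the G1 to S control genes and the G2 and M phase markers in both comparisons. Points are genes, red when called by edgeR, and the line is the median of the list. In fas2-4 the median is +0.05 for the 37 genes and +0.99 for the G2 and M phase markers, of which 14 of 17 are red.

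Markers of tissue moved in fas2-4 beside these genes. All 4 tested shoot meristem genes rose (STM +1.18, KNAT1 +1.09, KNAT6 +1.001 and KNAT2 +0.84), against 6.78% of all tested genes called higher. The sum of the 6 genes of that list was 36.2 to 39.0 TPM in fas2-4, against 15.6 to 19.7 TPM in Col-0. WUS and CLV3 were too low to test. Of 8 green leaf genes, 3 fell (RBCS3B -0.61, RBCS1A -0.58 and LHCB1.1 -0.67), against 2.96% of all tested genes called lower. The sum of the 8 was 74644 to 78766 TPM in fas2-4, against 99427 to 125183 TPM in Col-0. Of 5 root genes RHD6, PLT1 and PLT2 were at 0 in every library, and SCR and SHR were not called (-0.41 and +0.11, with adjusted p of 0.0873 and 0.681). The sum of the 5, all from SCR and SHR, was 25.5 to 31.4 TPM in fas2-4, against 34.3 to 35.8 TPM in Col-0. In the libraries labelled hira-1 edgeR and DESeq2 called none of the tested meristem, root or leaf genes. Of these, 3 leaf genes had an unadjusted p under 0.05, as had 6824 of all 18739 tested genes. In those libraries the meristem sum was 6.20 to 11.5 TPM, against 4.83 to 9.87 TPM in Col-0, and the leaf sum 73698 to 83932 TPM, against 77240 to 97061 TPM in Col-0. Their root sum was 14.3 to 19.7 TPM, against 15.1 to 17.7 TPM in Col-0. The part of these markers in the levels of the licensing and fork genes was not tested.

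The level of the ring genes, summed over the 6, was 57.7 to 71.7 TPM in Col-0 of experiment 2 and 22.8 to 37.4 TPM in Col-0 of experiment 1, and the sum of the origin recognition genes was 29.6 to 31.7 TPM and 21.1 to 22.8 TPM. The tables of the experiments were scaled separately, so these levels were not tested against each other.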

How the data were processed

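Column-purified RNA went into libraries made at BGI, per the labels' protocols. The submitters' processing notes name fastp 0.23.4, HISAT2 2.2.1 and TAIR10. How reads were counted, against which annotation release and with or without strand, is not given in the sources used here. For each experiment the authors deposited a table of raw counts per gene and a table of TPM with TMM scaling, which is entered as a score because its columns no longer sum to the fixed total of plain TPM. For genes of at least 200 counts, the deposited TPM matched the counts divided by 1 length per gene and 1 factor per library within 0.5% for 100% of genes.

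From the counts, edgeR 4.0.16 in R 4.3.3 was run on all genes (TMM factors, its filter on low counts by group, robust quasi-likelihood test, Benjamini-Hochberg adjustment), within each experiment for the comparisons with Col-0 and on all 12 libraries for the difference of effects. SE is taken as log2 fold change over the root of the F statistic. DESeq2 1.42.0, limma 3.58.1 on log2 of the deposited TPM with pseudocounts of 0.5 and 1, other scalings and filters, each library left out in turn, a replicate block and a correction for exon length were alternatives. For the length correction, each library's log2 CPM was taken minus the mean of the libraries in the fit. Its lowess trend over exon length (span 0.3) was used as an offset. The procedure was tested on simulated data. Python 3.11.15 and matplotlib 3.10.9 drew the figures.

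Same-numbered libraries correlated in their deviations from the group means by 0.281, 0.536 and 0.637 in experiment 1, so the numbers were taken as pairs there, from the data and not from the labels. In experiment 2 the correlations were -0.0663, 0.163 and 0.00638, so they were not. No libraries were duplicates.

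All 37 identifiers, and 32548 of the 32833 genes, matched RefSeq TAIR10.1, which gave exon lengths, overlaps and promoter windows. Of the 37, 14 overlap another annotated gene. The 37 genes and all lists were chosen with earlier results of these data known. Full values are given for genes called in a comparison, for those with the highest and lowest fold change, for paralog pairs and for MCM2 to MCM7, and for at most 4 called genes by adjusted p of each other list. A few more were given values after theirs were seen: POL2A under other fits, and CDC45, PSF3, EMB2813, ORC3 and TOPII by library.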

Additional observations from a re-analysis of the deposited data

Results flagged for a closer look

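Results are given here whose effect in fas2-4 differed from that in the libraries labelled hira-1, by edgeR's test of the difference itself at an adjusted p under 0.05 (log2, fas2-4 minus hira-1, each against its own Col-0 set). Among the licensing and fork genes these were ORC2 (-1.16) and CDT1A (-0.783). Among the other fork genes they were TOPII (3.51, adjusted p = 0.00638), POLD4 (1.19, adjusted p = 0.00855), RPA1E (2.57, adjusted p = 0.0285) and RPA2B (0.962, adjusted p = 0.0403), which encodes a middle subunit of RPA. Among the G2 and M phase markers they were CYCB1;1 (1.80, adjusted p = 0.0127), CYCB2;3 (0.949, adjusted p = 0.0306) and CDKB2;1 (1.06, adjusted p = 0.0314). Among the leaf genes they were RBCS3B (-0.867, adjusted p = 0.0214) and RBCS1B (-0.980, adjusted p = 0.0250), small subunits of Rubisco. TOPII has 5003 exon bases, in the length range where the libraries labelled hira-1 were lower. Its separate effects were +1.16 in fas2-4 (SE 0.42, adjusted p = 0.121) and -2.37 in the libraries labelled hira-1.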

How the results depend on the processing

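Most counts of calls moved by over 1.5 times under some alternative, and the causes were not tested. In fas2-4, 1948 genes were called (1356 higher, 592 lower), 2923 with DESeq2 (1717 higher, 1206 lower), 3333 with the length correction (1926 higher, 1407 lower), 3081 with length correction and replicate block, and 1117 with all 12 libraries in 1 fit; of the 37, 2 were called, and 1 with the replicate block or with all 12 libraries. In the libraries labelled hira-1, 2575 genes were called, 4381 with DESeq2, 9593 with the replicate block, 7190 with length correction and block and 5999 with all 12 libraries; of the 37, 3 were called, 9 with DESeq2, 18 with the block, 1 with the length correction, 15 with both and 11 with all 12 libraries. For the difference of effects, 2331 genes were called, 4153 with DESeq2, 6461 with the block and 5871 with length correction and block; of the 37, 2 were called, 1 without a filter, 5 with DESeq2, 9 with the block, 5 with the length correction and 9 with both. Leaving out 1 library gave 643 to 5661 genes, 0 to 10 of the 37 and medians of -0.08 to 0.16 in fas2-4; 19 to 5021, 0 to 11 and -0.23 to 0.19 in the libraries labelled hira-1; and 723 to 4844 and 0 to 11 for the difference.

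In experiment 1 the pairing changed the calls of the 37 named in the report and no other call among them. In experiment 2 the numbers did not pair the libraries, and the block left 1465 genes called, CDT1A among them (-0.54, adjusted p = 0.0493) but not ORC4 (0.66, adjusted p = 0.0588).

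Signs were followed only for the genes given full values by rule and for the named genes of other lists. Those that turned were of values not called by edgeR in the stated design. Among them 1 was called after turning, POL2A in the libraries labelled hira-1. In fas2-4, MCM3 became 0.0016 with upper-quartile scaling and 0.0090 with a filter of 1 CPM. E2FB became -0.022 with RLE scaling, -0.0089 without a filter, -0.027 with DESeq2, -0.033 with the block, -0.011 with the length correction, -0.040 with both, -0.023 with all 12 libraries, and -0.026 and -0.019 with limma. FAS1 became -0.0089 with the block and -0.0059 and -0.0012 with limma. For the libraries labelled hira-1, POL2A (-0.52) became 0.79 with the length correction and 0.78 with the block added (adjusted p = 0.0143), and PCNA1 -0.30 and -0.32. For the difference, MCM7 (0.37) became -0.061 and -0.13. Leaving out 1 library turned in fas2-4 MCM2 (-0.33 to 0.15), MCM3 (-0.16 to 0.19), MCM4 (-0.39 to 0.043), MCM6 (-0.26 to 0.13), MCM7 (-0.34 to 0.0018), ORC1B (-0.16 to 0.12), CDC6 (-0.12 to 0.18), CDC6B (-0.29 to 0.16), POLA3 (-0.11 to 0.13), E2FA (-0.075 to 0.26), E2FB (-0.17 to 0.21) and FAS1 (-0.13 to 0.27). In the libraries labelled hira-1 it turned CDC6B (-0.02 to 0.34) and PCNA1 (-0.18 to 0.18), and for the difference MCM7 (-0.078 to 0.77), ORC4 (-0.081 to 0.20), CDC6B (-0.43 to 0.028) and PCNA1 (-0.02 to 0.34). At 7 to 23 counts, depth limits what ORC1A in experiment 1 can show.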
